A study of Mus musculus with 6 samples.

Results

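The genes described here mark the macrophages of the mouse testis. They were chosen by name as *Csf1r*, *Cd68*, *Cd163*, *Mrc1*, *Lyz2*, *C1qa*, *C1qb*, *C1qc*, *Tyrobp* and *Fcer1g*, and every probe that the array files assign to one of these symbols was taken. They are 10 of the 27376 gene names on the array and are read by 14 of its 41174 probes, each 60 bases long. All 10 genes had a probe that could be tested, as did 19181 of all genes.

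The series compared whole testes of Prss55-/- mice with those of wild type (wt) mice, to see which testicular mRNAs depend on PRSS55, a serine protease made in the testis. Each genotype had 3 mice aged 6 to 8 weeks, on a mixed background of 129Sv and C57BL/6, with 1 single-colour array hybridised per mouse. The knockout was made by homologous recombination, so the allele was altered in every cell of the animal, macrophages included. The RNA came from the whole organ, of which macrophages are one part among many, and fewer cells of a type cannot be told apart from less RNA per cell. Signals are given below as log2 of the scanner's background-subtracted signal after quantile normalization, so that a difference of 1 is a 2-fold change, and every difference is Prss55-/- minus wt.

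Macrophages are the main immune cells of the testis. They lie in the interstitium among the Leydig cells, which make testosterone, and along the wall of the seminiferous tubules. They depend on the receptor CSF1R for survival, take up debris through scavenger receptors, make the complement protein C1q, and signal through the small adaptor proteins TYROBP and FCER1G. Several of these genes are not limited to macrophages, since neutrophils also make lysozyme, mast cells FCER1G and natural killer cells TYROBP.

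The array reads each gene through a short stretch of its mRNA, and the values below are the brightness of such stretches. Shown are probes for secreted, lysosomal and signalling products of macrophages, as printed on the array and given in the deposited files, 5′ to 3′. They are the probes whose values are given in full below, except for *Lyz2*, where the dimmer of its probes is shown and the full values are those of the brighter one. In the *Tyrobp* probe the capitals mark bases that code for part of the ITAM, the motif in the tail of TYROBP that the kinase SYK docks to once it is phosphorylated.
C1qa: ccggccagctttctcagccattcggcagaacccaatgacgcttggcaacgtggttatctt
C1qb: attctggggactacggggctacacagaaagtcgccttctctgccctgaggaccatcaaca
Cd68: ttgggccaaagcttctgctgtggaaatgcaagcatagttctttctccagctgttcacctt
Lyz2: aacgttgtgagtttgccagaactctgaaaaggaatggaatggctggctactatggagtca
Tyrobp: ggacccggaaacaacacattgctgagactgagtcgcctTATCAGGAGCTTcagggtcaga

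None of the macrophage genes passed the test between the genotypes. The file headers place the *C1qa*, *C1qb* and *C1qc* probes within 15.9 kb on the minus strand of chromosome 4, at chr4:136452409-136452468, chr4:136436578-136436637 and chr4:136445766-136445825 of mouse build mm9. The *Cd68* probe lies at chr11:69478314-69478373 on the minus strand and the brighter *Lyz2* probe at chr10:116714450-116714509 on the minus strand. The *Tyrobp* probe is placed on the plus strand of chr7:31200651-31202378, a span longer than the probe itself. Exons and UTRs of this build were not annotated here.

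In 9 of the 10 genes the mean was lower in Prss55-/- testes, by small amounts, against 50.3% of all tested genes that were lower. The differences of the 10 genes ran from -0.40 for *Cd163* to 0.04 for *Fcer1g*, with a median of -0.14, whereas the median over all tested genes was -0.00102. In limma, with Benjamini-Hochberg adjustment over 28606 probes, 0 of the 10 genes were called at an adjusted p below 0.05, and the smallest adjusted p was 0.184. Over all genes 1.72% were called. *Cd68* and *Cd163* were below 0.05 before adjustment in limma, 2 of 10 genes where 19.9% of all genes were, and with the methods' t-test 0 of 10 were, before or after adjustment.

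The intervals bound how far these genes could have differed between the genotypes. The 95% intervals of all 10 brightest probes lay inside 2-fold in either direction, as did those of 95.4% of all tested genes. Their outermost ends were -0.72 and 0.31, or a Prss55-/- to wt ratio between 0.606 and 1.24. An adjusted p above the threshold does not show that the genotypes were alike within these bounds. In 6 genes the difference was smaller than the larger SD within a genotype, and in the other 4 the Prss55-/- mean was lower by more than that SD.

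**Figure D1:**
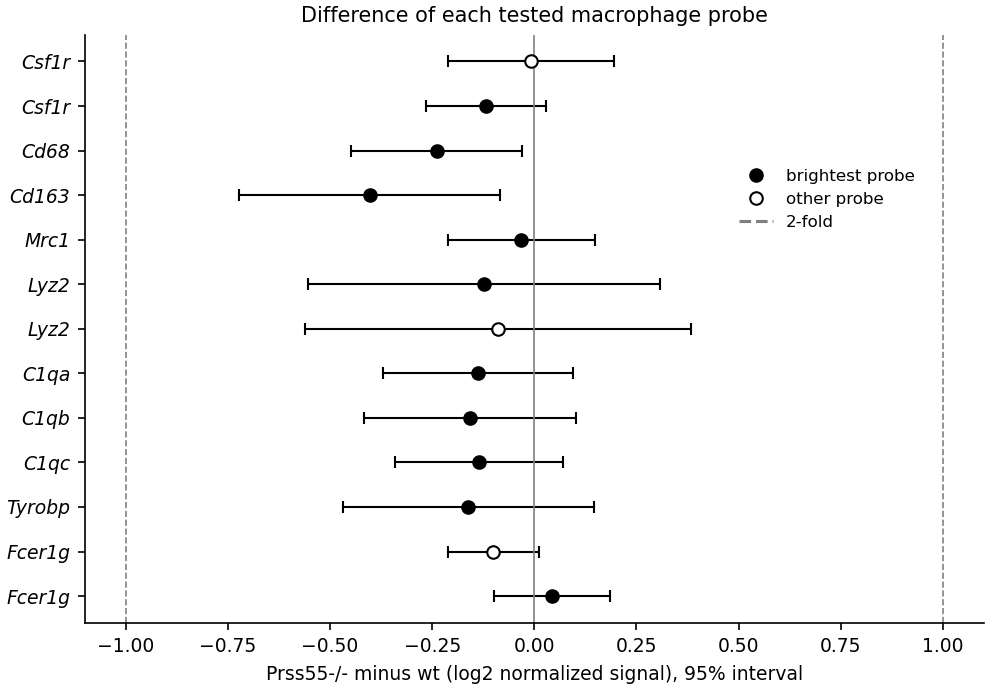
Difference in log2 normalized signal (x axis, Prss55-/- minus wt, 3 arrays each) for each of the 13 tested probes of the macrophage genes, with limma's 95% interval. Filled points are the brightest probe of a gene and open points its other probe; the filled points run from -0.40 to 0.04 and no interval reaches the dashed lines at 2-fold.

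Among the receptors and lysosomal proteins, *Cd163* and *Cd68* had the largest differences of the 10 genes. *Cd163* codes for the scavenger receptor that clears haemoglobin bound to haptoglobin. Its probe, on the plus strand at chr6:124280484-124280543, gave 5.46, 5.84 and 5.95 in Prss55-/- replicates 1 to 3 and 6.19, 6.22 and 6.05 in wt replicates 1 to 3. All wt arrays were above all Prss55-/- arrays, and the low value of Prss55-/- replicate 1 widened the gap. The means were 5.75 ± 0.253 and 6.15 ± 0.090 (SD, n = 3 mice each), a difference of -0.40 with a 95% interval of -0.72 to -0.08 and an adjusted p of 0.184 in limma. *Cd163* was 1 of 10 macrophage genes whose genotypes did not overlap, where 27.3% of all tested genes did not. The difference was -0.26 without Prss55-/- replicate 1, and -0.17 when the background was subtracted by the normexp model. By brightest probe this gene was the dimmest of the 10, though it was well above background on every array.

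*Cd68*, a protein of the lysosome membrane and a common stain for macrophages, gave 7.71, 7.51 and 7.57 in the Prss55-/- arrays and 7.91, 7.69 and 7.90 in the wt arrays. The groups overlapped at a single point, since Prss55-/- replicate 1 stood just above wt replicate 2. The means were 7.60 ± 0.102 and 7.84 ± 0.126 (SD, n = 3 each), the difference was -0.24 with an interval of -0.45 to -0.03, and limma's adjusted p was 0.216. The corresponding ratio of 0.847 had bounds of 0.733 and 0.979.

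*Csf1r* codes for the receptor of the growth factors CSF1 and IL34, on which macrophages depend. Its brightest probe, at chr18:61290384-61290443 on the plus strand, read 9.58, 9.52 and 9.57 in the Prss55-/- arrays and 9.69, 9.58 and 9.76 in the wt arrays. The 3 Prss55-/- values lay close together and at the level of the lowest wt array, with the other wt arrays above them. The difference was -0.12 (interval -0.26 to 0.03, limma's adjusted p 0.349). A further *Csf1r* probe differed by only -0.01 (adjusted p 0.971 in limma). The remaining *Csf1r* probe was not tested, because its signal cleared the background in only 1 of 3 Prss55-/- and 2 of 3 wt mice.

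The mannose receptor gene *Mrc1*, whose product binds sugars on microbes and glycoproteins and also marks some endothelium, had the smallest difference of the receptors. On the plus strand at chr2:14253304-14253363, it gave 9.96, 9.91 and 9.94 in the Prss55-/- arrays and 9.82, 10.07 and 10.01 in the wt arrays. The Prss55-/- values fell inside the spread of the wt values. The difference was -0.03 with an interval of -0.21 to 0.15 (limma's adjusted p 0.841), and it was 0.019 without wt replicate 2.

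Among the secreted products, the C1q chains shared their highest and their lowest wt array. *C1qa*, *C1qb* and *C1qc* code for the chains that assemble into C1q, the molecule that starts the classical complement pathway and tags debris for uptake. *C1qa* gave 9.96, 9.70 and 9.77 in the Prss55-/- arrays and 9.93, 9.83 and 10.09 in the wt arrays. *C1qb* gave 10.25, 10.11 and 9.99 in the Prss55-/- arrays and 10.28, 10.11 and 10.45 in the wt arrays. *C1qc* gave 10.47, 10.33 and 10.42 in the Prss55-/- arrays and 10.58, 10.39 and 10.66 in the wt arrays.

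For each C1q gene the highest array was wt replicate 3 and the genotypes overlapped. wt replicate 2 was the lowest wt array for each, and was below Prss55-/- replicate 1. The differences were -0.14 for *C1qa*, -0.16 for *C1qb* and -0.14 for *C1qc*, with intervals of -0.37 to 0.10, -0.42 to 0.10 and -0.34 to 0.07. Limma's adjusted p was 0.479, 0.468 and 0.431.

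*Lyz2*, the lysozyme gene of myeloid cells, was the secreted product with the widest spread inside each genotype. Its brightest probe gave 13.70, 13.64 and 13.24 in the Prss55-/- arrays and 13.85, 13.34 and 13.76 in the wt arrays. Each genotype held 1 low array, Prss55-/- replicate 3 and wt replicate 2, and the others were mixed. The difference of -0.12 was smaller than either SD (0.252 and 0.271), with an interval of -0.56 to 0.31 and an adjusted p of 0.741 in limma, and it was 0.021 without Prss55-/- replicate 3.

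The dimmer *Lyz2* probe, at chr10:116719175-116719234 and printed above, was 7.97 ± 0.287 in Prss55-/- and 8.06 ± 0.288 in wt (SD, n = 3 each) and gave a difference of -0.09 (limma's adjusted p 0.832). The neighbouring paralogue *Lyz1*, read at chr10:116725254-116725313, gave -0.10 (adjusted p 0.806 in limma). All 3 lysozyme probes put the arrays in the same order, with wt replicate 1 highest and Prss55-/- replicate 3 lowest. *Lyz1* and *Lyz2* are alike in sequence, so cross-hybridisation between them was possible and their signals are not certain to be separate.

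The adaptors gave one gene below and one above the wt mean. TYROBP carries an ITAM and pairs with receptors such as TREM2. Its probe gave 10.45, 10.05 and 10.01 in the Prss55-/- arrays and 10.33, 10.25 and 10.41 in the wt arrays. Prss55-/- replicate 1 was the highest of all 6 arrays, while the other Prss55-/- arrays were below every wt array. The difference was -0.16 (interval -0.47 to 0.15, adjusted p 0.523 in limma). Without Prss55-/- replicate 1 it was -0.30, with an adjusted p of 0.0974 in limma, the smallest that any macrophage gene reached under any alternative.

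FCER1G is the shared signalling chain of Fc receptors, which bind antibodies. The brightest *Fcer1g* probe, on the minus strand at chr1:173159794-173159853, gave 10.58, 10.48 and 10.55 in the Prss55-/- arrays and 10.56, 10.42 and 10.49 in the wt arrays. These values overlapped, and the difference was 0.04 (interval -0.10 to 0.19, limma's adjusted p 0.728). The other *Fcer1g* probe, at chr1:173159846-173159918, read 9.02 ± 0.017 in Prss55-/- and 9.12 ± 0.040 in wt (SD, n = 3 each). Here no Prss55-/- array reached the wt arrays, the difference was -0.10 (interval -0.21 to 0.01) and limma's adjusted p was 0.30, so that the probes of this gene differed in sign.

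**Figure D2:**
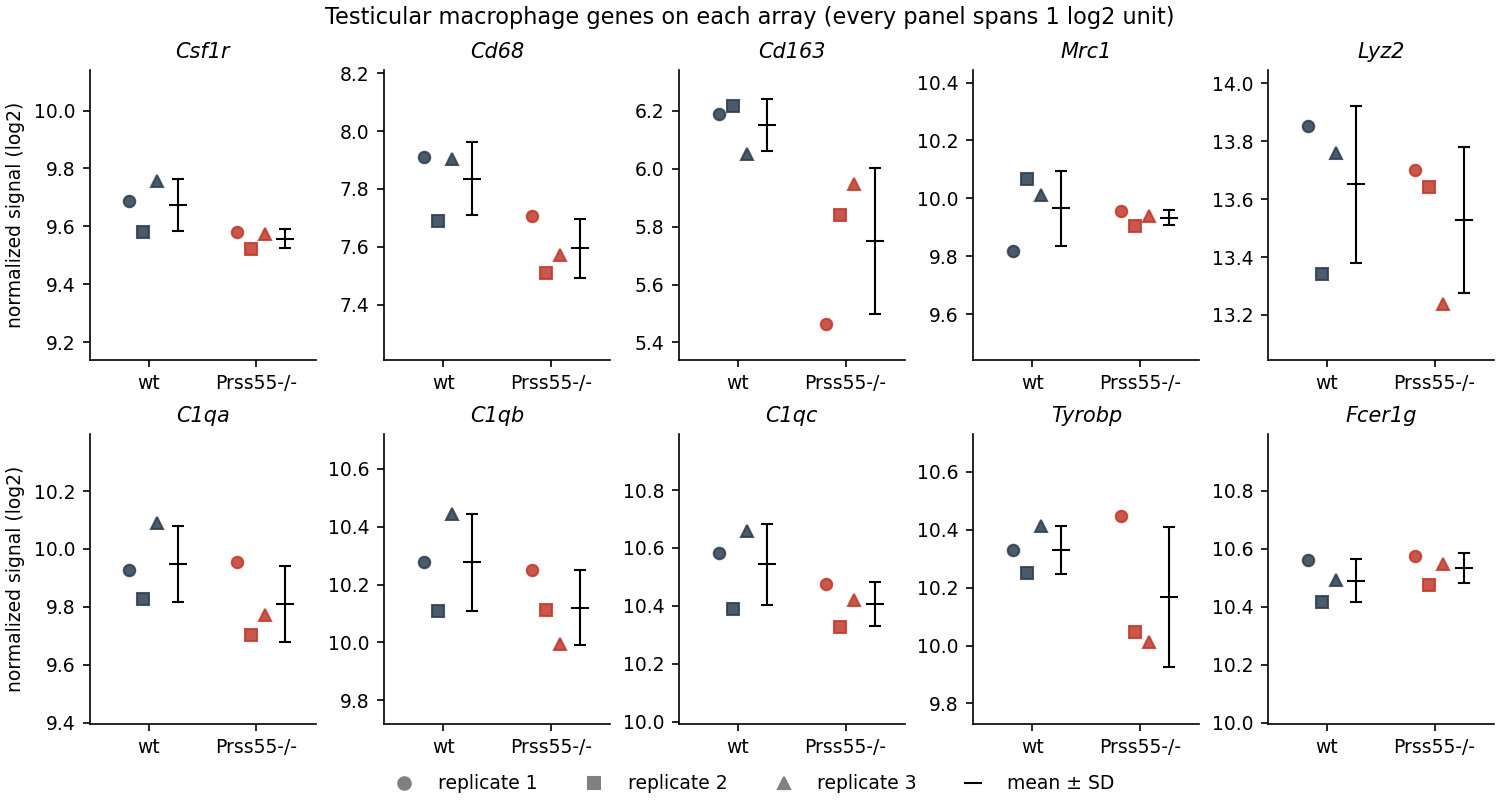
Log2 normalized signal (y axis) of the brightest probe of each macrophage gene on the 3 wt and 3 Prss55-/- arrays, with the mean and SD of each genotype; every panel spans 1 log2 unit, so heights can be compared across panels as differences. The genotypes are apart for *Cd163* alone, and the range over the 6 arrays was smallest for *Fcer1g* (0.162) and largest for *Cd163* (0.753).

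With 3 mice against 3, an exact permutation test on a single gene cannot go below a two-sided p of 0.1. Among the brightest probes that value was reached for *Cd163* (exact permutation p = 0.1), and the next were *Csf1r* and *Cd68* (exact permutation p = 0.2 each).

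Across the panel, most of the macrophage genes tended to be high or low together on an array, and the arrays of a genotype did not behave alike. Exceptions included *Cd163*, lowest on Prss55-/- replicate 1, and *Mrc1*, lowest on wt replicate 1. Both were highest on wt replicate 2. As deviations from each gene's own mean over the 6 arrays, the 10 genes averaged 0.10 on wt replicate 1, -0.025 on wt replicate 2 and 0.14 on wt replicate 3. They averaged -0.0019 on Prss55-/- replicate 1, -0.11 on Prss55-/- replicate 2 and -0.11 on Prss55-/- replicate 3. The pair of high wt arrays each had 9 of 10 genes above their own mean, and the pair of low Prss55-/- arrays had 1 of 10 each. wt replicate 2, with 2 of 10 genes above, and Prss55-/- replicate 1, with 6 of 10, stood between them and in reverse order of genotype. Without *Lyz2* their means were -0.00087 and -0.015, in the order of genotype. The medians of all 10 genes were -0.045 on wt replicate 2 and 0.030 on Prss55-/- replicate 1, again reversed. *Cd163* pulled the means the other way, with 0.27 on wt replicate 2 and -0.49 on Prss55-/- replicate 1. The median deviation over all genes lay between -0.00062 and 0.0069 on every array. The 10 genes are not independent of each other and their summed level was given no test.

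Leydig cell genes followed a similar order of arrays, and Sertoli cell genes did not. The 7 measured Leydig cell genes averaged 0.32, 0.013 and 0.33 on wt replicates 1 to 3 and 0.18, -0.48 and -0.36 on Prss55-/- replicates 1 to 3. Their median difference was -0.55, 6 of 7 were lower in Prss55-/-, and 0 were called. Before adjustment in limma 3 of 7 were below 0.05, all lower, where 1910 of 19181 tested genes were lower at that threshold. *Hsd3b1*, an enzyme that makes steroid hormones, was 13.81 ± 0.253 in Prss55-/- and 14.48 ± 0.022 in wt (SD, n = 3 each), and limma's adjusted p was 0.0709. The steroid hydroxylase gene *Cyp17a1* differed by -0.38 (limma's adjusted p 0.229). The mean of 8 genes of Sertoli cells, the nurse cells of the tubule, stayed between -0.054 and 0.042 on all arrays. The part of Leydig cell content, or of how much interstitial tissue a testis sample held, in the macrophage values was not tested.

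**Figure D3:**
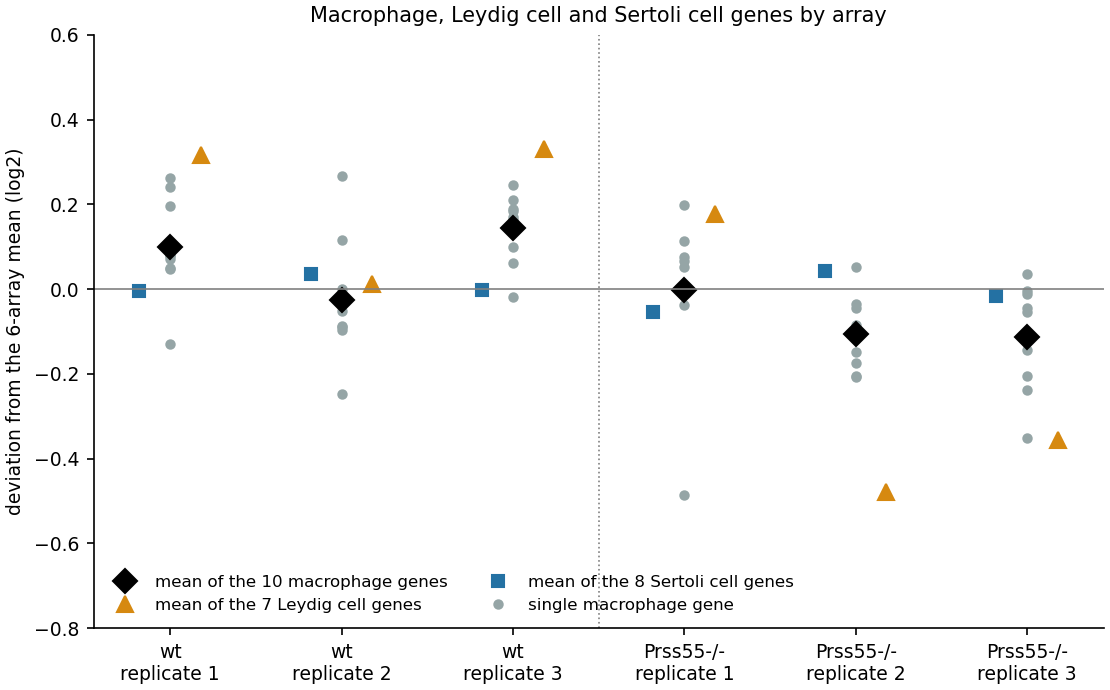
Deviation of log2 normalized signal from the mean over the 6 arrays (y axis) on each array (x axis). Grey points are the 10 macrophage genes, diamonds their mean (0.14 on wt replicate 3, -0.11 on Prss55-/- replicates 2 and 3), and triangles and squares the means of 7 Leydig cell and 8 Sertoli cell genes.

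The further macrophage markers held no called gene either. Of 26 on the array, 21 were tested, 0 were called in either direction, 6 were below 0.05 before adjustment in limma (1 higher and 5 lower), and the median difference was -0.16. *Adgre1*, a surface receptor of mature macrophages, was 9.53 ± 0.104 in Prss55-/- and 9.57 ± 0.049 in wt (SD, n = 3 each), a difference of -0.04. *Ptprc*, the CD45 antigen of all white blood cells, was 6.69 ± 0.111 in Prss55-/- and 6.96 ± 0.099 in wt, with no overlap of the genotypes, a difference of -0.27 and an adjusted p of 0.158 in limma.

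*Cx3cr1*, the fractalkine receptor of resident macrophages, gave 7.50, 6.55 and 6.75 in the Prss55-/- arrays and 8.32, 7.81 and 7.03 in the wt arrays. The wt arrays were spread over more than 1 log2 unit and overlapped with Prss55-/- replicate 1, so that the difference of -0.79 had an interval of -1.72 to 0.15 and an adjusted p of 0.33 in limma. The dimmer *Cx3cr1* probe differed by -1.30 (interval -2.6 to -0.0085, limma's adjusted p 0.259), with overlap of the genotypes. That probe was well above background on 1 of 3 Prss55-/- and 3 of 3 wt arrays. It was thus tested only through wt, where it was higher, and is no independent support for the difference of the brighter probe. The lipid receptor gene *Trem2* differed by -0.29 (interval -1.05 to 0.47). *Itgam*, the CD11b integrin, was not well above background on any array. The brightest genes of the list, *Aif1*, which binds actin and calcium, and the lysosomal protease gene *Lgmn*, differed by 0.05 and 0.00035. *Aif1* read 16.88 in Prss55-/- and 16.83 in wt, far above *Adgre1*, and its other probe differed by -0.06. Which cells gave that signal was not tested.

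The ligands of CSF1R went in opposite directions without passing the test. *Csf1* was 9.13 ± 0.273 in Prss55-/- and 9.34 ± 0.038 in wt (SD, n = 3 each), a difference of -0.21 (interval -0.54 to 0.12). *Il34* was 8.62 ± 0.078 in Prss55-/- and 8.50 ± 0.060 in wt, a difference of 0.12 (interval -0.02 to 0.28). With the myeloid transcription factors, 9 of 10 genes were tested, 0 were called, 3 were below 0.05 before adjustment in limma (1 higher, 2 lower) and the median difference was -0.21. *Spi1*, which codes for the myeloid regulator PU.1, was not well above background on any array, *Irf8* differed by -0.47 (interval -1.04 to 0.10) and *Maf* by -0.05.

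The partners and regulators of C1q were lower in 15 of 16 tested genes of 18 on the array, with a median difference of -0.16. None was called. Before adjustment in limma 5 of the 16 were below 0.05, all lower, where 19.9% of all genes were in either direction and 1910 of 19181 lower. In 6 of the 16 the genotypes did not overlap, all lower, where 27.3% of all genes did not in either direction and 2641 of 19181 lower. These shares over all genes, in either direction, are the background for the counts of every other list as well. *Cd55*, whose product breaks up the enzymes that activate C3, was 14.01 ± 0.028 in Prss55-/- and 14.21 ± 0.111 in wt (SD, n = 3 each), with an adjusted p of 0.195 in limma. Its other probes differed by 0.02 and -0.14. *C2*, a protease of the classical pathway, differed by -0.09.

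*C3*, the protein on which all complement pathways meet, gave 13.16, 10.18 and 12.10 in the Prss55-/- arrays and 11.58, 12.24 and 12.06 in the wt arrays. The highest and the lowest array were both Prss55-/-. The difference of -0.14 therefore had an interval of -1.90 to 1.62.

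Receptors and kinases that work with TYROBP and FCER1G included genes on either side of 0. Of 14 on the array, 12 were tested, 0 were called, 6 were below 0.05 before adjustment in limma (2 higher, 4 lower), and the median was -0.15. *Syk*, the kinase that binds phosphorylated ITAMs, differed by -0.11 (interval -0.31 to 0.09). *Plcg2*, a phospholipase downstream of SYK, differed by -0.18. *Trem1*, a receptor of neutrophils and monocytes that signals through TYROBP, gave 11.10, 10.93 and 11.02 in the Prss55-/- arrays and 10.45, 10.45 and 10.78 in the wt arrays. All Prss55-/- arrays were above all wt arrays, by a mean of 0.46 (interval 0.20 to 0.71), with an adjusted p of 0.103 in limma, the smallest of the list. In this list 2 genes were higher and 4 lower with no overlap of the genotypes.

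The genes with which macrophages present antigen were mixed in sign. Of 6 MHC class II genes tested, 4 were above 0 and 2 below, the median was 0.11, 0 were called and 3 were below 0.05 before adjustment in limma (1 higher, 2 lower). *H2-Ab1*, a chain of the class II molecule, differed by 0.03, and *H2-DMb1*, a part of the peptide loader, by -0.20. Of 12 activation genes only 5 were tested, with 0 called, 3 below 0.05 before adjustment in limma (1 higher, 2 lower) and a median of -0.24. *Hmox1*, which breaks down haem, differed by -0.38 and *Chil3*, a chitinase-like protein of macrophages, by -0.24, with limma's adjusted p at 0.579 and 0.631. Further genes of this list, named after their values were seen, gave a mixed picture. The inflammatory cytokine gene *Il1b* gave 5.81, 5.84 and 5.84 in the Prss55-/- arrays and 5.48, 5.48 and 5.64 in the wt arrays, where it was well above background on 1 of 3. All its Prss55-/- values were above all wt values, by a mean of 0.30 (interval 0.15 to 0.44). The adjusted p was 0.0798 in limma, the smallest of the list. *Il1b* was tested only because it cleared the background on all Prss55-/- arrays, the genotype where it was higher. Its difference is therefore not independent of that filter. *Retnla*, a secreted product of macrophages stimulated by interleukin 4, cleared the background in 1 of 3 Prss55-/- and 3 of 3 wt mice. It was thus tested only through the wt arrays, where it was higher. The difference of -2.16 (interval -4.30 to -0.02, limma's adjusted p 0.258), with overlap of the genotypes, depends on that filter and on Prss55-/- values near background. *Il1b* and *Retnla* are both among the genes of this list below 0.05 before adjustment in limma. *Tnf*, *Il6*, *Nos2*, *Il10* and *Cxcl10* were not well above background on any array.

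**Figure D4:**
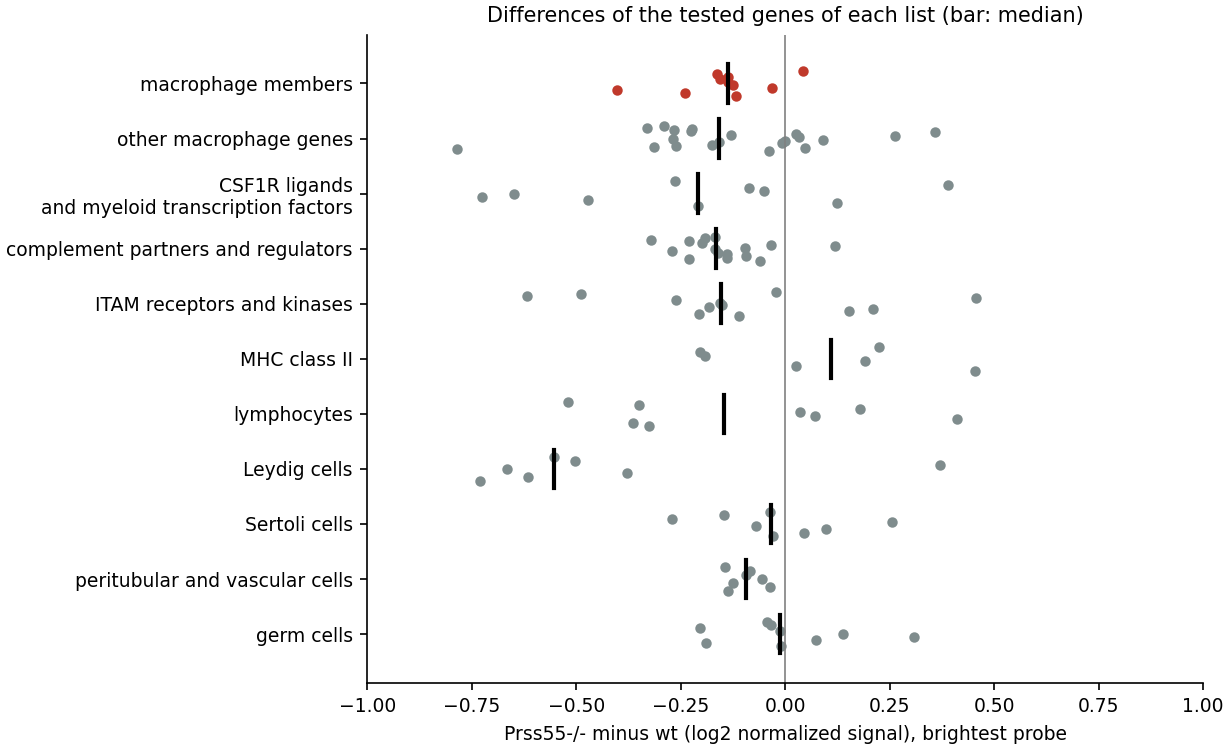
Difference in log2 normalized signal (x axis, Prss55-/- minus wt) of the brightest probe of each tested gene, by gene list, with the median of a list as a bar. The activation, neutrophil and mast cell, red cell and epididymal lists are not drawn. The 10 macrophage genes have a median of -0.14, the complement genes -0.16, the Leydig cell genes -0.55, the Sertoli cell genes -0.03 and the germ cell genes -0.01.

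Markers of other blood cells were few and varied. Of 8 tested lymphocyte genes, 0 were called, 2 were below 0.05 before adjustment in limma (1 higher, 1 lower) and the median was -0.15. *Cd3d*, a chain of the T cell receptor complex, differed by -0.33. Of 8 neutrophil and mast cell genes on the array only 3 were tested, with 0 called and 0 below 0.05 before adjustment in limma. Among them *Mpo*, the peroxidase of neutrophil granules, differed by -0.37 and *Cpa3*, a mast cell protease, by -0.49. Of 4 tested red cell genes, 0 were called and 1 was below 0.05 before adjustment in limma, and *Hbb-b1* and *Hba-a1*, which code for haemoglobin chains, differed by -0.05 and -0.12.

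The markers of the tissue itself were those of testis. All 9 germ cell genes were tested and 0 were called, with 3 below 0.05 before adjustment in limma. *Tnp1* and *Prm1*, which pack DNA in spermatids, were at 18.89 and 18.81 in Prss55-/- and differed by -0.01 and -0.03. All 8 Sertoli cell genes were tested with 0 called and 2 below 0.05 before adjustment in limma, and *Clu* and *Rhox5* differed by -0.07 and 0.26. Of 7 peritubular and vascular genes all were below 0, with a median of -0.09, 0 called and 1 below 0.05 before adjustment in limma, and *Acta2* and *Vwf* both differed by -0.14. Of 6 epididymal genes on the array 1 was tested, *Cst11*, which differed by 0.32 (limma's adjusted p 0.374). It was not well above background on every array and was tested through 1 genotype only, so its difference depends on that filter.

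On each array 69.5% to 72.9% of spots were well above background and none was saturated. Over all probes 348 were called in limma, 164 higher and 184 lower. The targeted gene *Prss55*, on the minus strand at chr14:64694275-64694333, fell by 0.90 from 15.89 ± 0.12 in wt to 14.98 ± 0.085 in Prss55-/- (SD, n = 3 each, limma's adjusted p 0.00995), and was still well above background in every Prss55-/- mouse. The paper reports that PRSS55 was absent in the knockout, at the RNA level by RT-PCR and as protein by Western blot and immunofluorescence. Whether the array's *Prss55* probe lies inside the altered part of the gene is not given in the sources used here. The source of the remaining signal was not tested. No slide held both genotypes (all Prss55-/- mice shared 1 slide, the wt mice the other 2), so that slide and genotype cannot be told apart for any value above.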

How the data were processed

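Total testis RNA of 3 wt and 3 Prss55-/- mice was hybridised to single-colour (Cy3) Agilent arrays. The authors deposited scanner tables made with Agilent Feature Extraction 10.7, which hold per-spot signal intensity (processed signal, mean signal and background median) and flags for each spot, and a matrix of log2 values that the authors had normalized. Genome positions are those of mm9 per the file headers.

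Control spots were left out, processed signals below 1 were set to 1, and log2 values were quantile normalized over the 6 arrays. Spots marked as outliers were left out after that step, and the remaining spots of a probe were averaged. A probe was tested if well above background on all 3 arrays of a genotype (28606 probes, 2 of them with a missing array in the fit). Genotypes were compared with lmFit and eBayes of limma 3.58.1 in R 4.3.3, two-sided, with Benjamini-Hochberg adjustment over all tested probes, and intervals are at 95%. The brightest tested probe stood for a gene, and a gene was called if any tested probe had an adjusted p below 0.05. The fit was tested on simulated data. Tables were made in Python 3.11.15 with numpy 2.4.6 and pandas 2.3.3, and figures with matplotlib 3.10.9. The number of arrays, 3 per genotype, limits the precision.

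The members and the 14 other gene lists (155 genes, 149 on the array, 3 under an older symbol) were chosen with earlier results of these data known. The text names *Prss55*, the 10 macrophage genes, any called gene of a list, the brightest 2 tested genes of each list and a few genes fixed by name, of which *Insl3* was not matched and is not analysed here. One gene that this rule names is not reported here. *Lyz1*, *Il1b*, *Retnla* and the activation genes at background were named after their values were seen. Alternatives were scaling to the 75th percentile, the deposited log2 matrix, normexp background (offset 50), other filters on dim probes, the methods' t-test, an intensity trend with a robust prior, replicate number or slide as a block, and leaving out each array.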

Additional observations from a re-analysis of the deposited data

How the results depend on the processing

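No macrophage gene was called under any of the 15 alternatives, and their median difference stayed between -0.21 (without Prss55-/- replicate 1) and -0.07 (without wt replicate 3). In 8 genes the direction never turned. *Lyz2* ran from -0.28 to 0.021 and *Mrc1* from -0.10 to 0.019 when 1 array was left out, turning without Prss55-/- replicate 3 and without wt replicate 2. From 0 to 3 macrophage genes were below an unadjusted p of 0.05 in limma, 0 without wt replicate 1 and 3 without Prss55-/- replicate 1 or wt replicate 2. Under these 3 settings, in that order, 69, 845 and 131 of all probes were called. The share of all genes below the unadjusted threshold was not computed for each setting, so the 0 to 3 cannot be set against a background.

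The number of all probes called, 348, moved more. It was 137 with no filter on dim probes, 81 with the methods' t-test, 806 with an intensity trend and robust prior, and 38 to 845 when 1 array was left out (845, 63 and 38 as Prss55-/- replicates 1, 2 and 3 were dropped in turn, 69 and 131 as wt replicates 1 and 2 were). The cause was not tested. The replicate number as a block gave 13 probes and 0 macrophage genes. Same-numbered mice did not deviate together (correlations -0.054, -0.023 and -0.11, and 0 of 3 numbers correlated best with themselves). The paper speaks of 3 pairs of mice, and with 3 per genotype these correlations cannot show that the mice were unpaired. Whether the replicate numbers mark those pairs is not given.

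Without Prss55-/- replicate 1, limma called 3 of the CSF1R ligands and transcription factors, 2 Leydig cell genes, and 1 gene each among other macrophage, lymphocyte, and neutrophil and mast cell markers. One call each was also made among activation genes (with scaling to the 75th percentile, and without wt replicate 3), ITAM receptors and kinases (without wt replicate 3), Leydig cell genes (with normexp, and with the intensity trend) and Sertoli cell genes (with the intensity trend). With 3 mice per genotype from a whole organ, differences inside the stated intervals were not resolved, and *Itgam* and *Spi1* were not well above background.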
